A study of Mus musculus with 10 samples.

Results

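The regions described here are stretches of the mouse genome that were listed as enriched for the transcription factor Dlx2 in both the basal ganglia and the cortex at embryonic day 16 (E16), and in no other list of the series. They were found by pooling the 5 deposited lists of Dlx2-enriched regions on chromosomes 1 to 19 and X, joining regions that overlapped by at least 1 bp, and keeping each merged region built from the E16 basal ganglia list and the E16 cortex list only. The members were thus selected on the called positions in the 5 lists. This gave 3186 of 18606 merged regions (17.1%, exact 95% interval 16.6 to 17.7). Their number, fold enrichment, width and rank come from the same 2 lists that chose them and are given as a description, with no test.

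Chromatin from formaldehyde-fixed tissue was immunoprecipitated with an anti-Dlx2 antibody and sequenced (ChIP-seq). The 5 immunoprecipitated libraries are 1 each of E16 basal ganglia, E16 cortex, E16 olfactory bulb, P3 (postnatal day 3) olfactory bulb and P3 cortex, and the other 5 of the 10 samples are inputs with no list, not analysed here. The labels give no strain, genotype or number of animals, and each tissue and age has 1 library, so no value has replicates. Read depth is not given in the sources used here, so absence of a region in a list means that it did not reach the authors' call threshold, not that Dlx2 was absent. No expression was measured, so the tissue of each library rests on its label.

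Dlx2 is a homeodomain protein of the Distal-less family that is made in the ganglionic eminences, the embryonic source of basal ganglia neurons and of the interneurons that migrate to the cortex and olfactory bulb. Together with its relatives it promotes the GABAergic fate, and homeodomains of this family recognise DNA with a TAATT core. In the embryonic cortex Dlx2 protein is known from the immigrant interneurons, while the glutamatergic lineage makes up most of the tissue. In such whole tissue, fewer bound cells and less binding per cell cannot be told apart.

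Sequences of 2 kinds illustrate where the shared regions lie, and both were picked after their values were seen. The first are mature microRNAs encoded by hairpins that the regions cover. They are shown because hairpins known for brain development were among the 57 covered, and the products of the others are not printed. The capitals mark the seed, bases 2 to 8, and the sequences are those of RefSeq for GRCm38.p6.
mmu-miR-9-5p: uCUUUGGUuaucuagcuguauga
mmu-miR-9-3p: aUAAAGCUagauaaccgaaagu
mmu-miR-92b-3p: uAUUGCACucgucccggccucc
mmu-miR-25-3p: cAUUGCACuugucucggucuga
mmu-miR-181a-5p: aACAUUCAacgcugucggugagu
mmu-miR-181b-5p: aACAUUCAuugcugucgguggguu
mmu-let-7b-5p: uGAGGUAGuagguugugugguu
mmu-let-7c-5p: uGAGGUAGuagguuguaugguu
mmu-miR-128-3p: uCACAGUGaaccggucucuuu
mmu-miR-137-3p: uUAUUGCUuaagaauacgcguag
mmu-miR-7a-5p: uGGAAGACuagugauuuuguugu
mmu-miR-125b-5p: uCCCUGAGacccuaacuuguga

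The second are promoter windows from 250 bases before to 50 bases after an annotated start, also from RefSeq for GRCm38.p6. Those of Nfix (chr8:84780033-84780332, minus strand), Myt1l (chr12:29534972-29535271, plus strand) and Ddx17 (chr15:79532868-79533167, minus strand) are shown as the 3 windows of protein-coding genes that held both summits and a TAATT match on either strand, with the matches in capitals. That of Mir9-3hg (chr7:79515185-79515484, plus strand), the host gene of a miR-9 hairpin, is shown as the window of the second region by summed rank, with its GGGCGG match in capitals. It has no TAATT match and holds neither summit. The basal ganglia summit lay 201 bp and the cortex summit 211 bp past the start.
Nfix: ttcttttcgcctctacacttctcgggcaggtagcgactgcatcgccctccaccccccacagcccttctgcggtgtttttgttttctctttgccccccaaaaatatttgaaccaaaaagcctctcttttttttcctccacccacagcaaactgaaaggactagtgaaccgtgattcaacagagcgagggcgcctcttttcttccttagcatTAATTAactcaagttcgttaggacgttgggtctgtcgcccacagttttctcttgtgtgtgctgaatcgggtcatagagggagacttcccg
Myt1l: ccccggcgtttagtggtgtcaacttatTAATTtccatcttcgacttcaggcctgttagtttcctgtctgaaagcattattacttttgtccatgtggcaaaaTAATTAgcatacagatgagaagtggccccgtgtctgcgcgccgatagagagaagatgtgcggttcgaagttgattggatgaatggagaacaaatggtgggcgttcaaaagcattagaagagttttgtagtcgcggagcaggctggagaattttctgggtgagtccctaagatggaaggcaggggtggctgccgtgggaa
Ddx17: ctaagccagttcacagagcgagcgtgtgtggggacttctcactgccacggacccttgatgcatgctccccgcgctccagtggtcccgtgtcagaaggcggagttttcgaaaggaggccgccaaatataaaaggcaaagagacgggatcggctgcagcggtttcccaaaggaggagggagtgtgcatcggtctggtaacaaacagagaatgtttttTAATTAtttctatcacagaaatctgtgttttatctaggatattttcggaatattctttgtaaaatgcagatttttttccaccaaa
Mir9-3hg: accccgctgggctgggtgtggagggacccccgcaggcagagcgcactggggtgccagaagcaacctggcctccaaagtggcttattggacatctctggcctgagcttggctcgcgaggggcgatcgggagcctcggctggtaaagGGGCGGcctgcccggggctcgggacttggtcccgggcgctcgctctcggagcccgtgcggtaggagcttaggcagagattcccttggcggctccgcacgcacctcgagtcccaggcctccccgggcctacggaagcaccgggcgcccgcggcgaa

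The regions shared by the E16 basal ganglia and cortex were led by a region within Mex3a. The 25 with the lowest summed rank by −log10 q in the 2 lists spanned 2622 bp at Zfp46 to 27882 bp at Mir9-3hg. Fold enrichment below is the ratio at the summit that the authors' peak caller wrote for a region in its own library. It was 53.2 in the basal ganglia and 71.9 in the cortex within Mex3a, which encodes an RNA-binding protein (chr3:88533874-88541996, mm10). This region ranked 2 of 14795 in the basal ganglia list and 1 of 6333 in the cortex list, ranks being counted over the full lists. At Mir9-3hg, 47.7 kb outside the nearest protein-coding gene Polg, it was 46.8 in the basal ganglia and 63.0 in the cortex (chr7:79501332-79529213). The third was 2700081O15Rik, with 49.6 in the basal ganglia and 46.2 in the cortex.

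Several of the leading 25 lay at genes of RNA-binding or chromatin proteins. Mex3b, the paralogue of Mex3a, had 44.5 in the basal ganglia and 54.5 in the cortex, and Nova2, a neuronal splicing regulator, had 25.3 in the basal ganglia and 42.2 in the cortex. Kdm6b, a histone H3 lysine demethylase gene, had 37.7 in the basal ganglia and 52.2 in the cortex. Brd2, a bromodomain protein gene, had 30.3 in the basal ganglia and 46.97 in the cortex. Bahcc1, Mn1 and the zinc finger genes Zfp316, Zfp46 and Scrt2 also belonged to the leading 25, as did the forkhead gene Foxo6.

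Others of the leading 25 lay at genes of adhesion, the cytoskeleton or varied function. Dchs1, a giant cadherin, had 45.5 in the basal ganglia and 59.1 in the cortex. Marcks, an actin-binding protein kinase C substrate, had 40.5 in the basal ganglia and 37.5 in the cortex. Mast1, a microtubule-associated kinase gene, had 41.1 in the basal ganglia and 47.9 in the cortex. Sema6c, a semaphorin, Ptprs, a receptor tyrosine phosphatase, and Lrrc4b and Nrxn2, which encode synaptic adhesion proteins, were also among the 25, as were Gprin1, Fam171a2, Tmem151b and Irgq. The region at Erdr1, a transcribed pseudogene in the table used, 20.1 kb from Mid1 on chromosome X, had the lowest values of the 25, with 13.8 in the basal ganglia and 22.1 in the cortex. No blacklist of artifact-prone loci was applied, here or elsewhere.

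**Figure D1:**
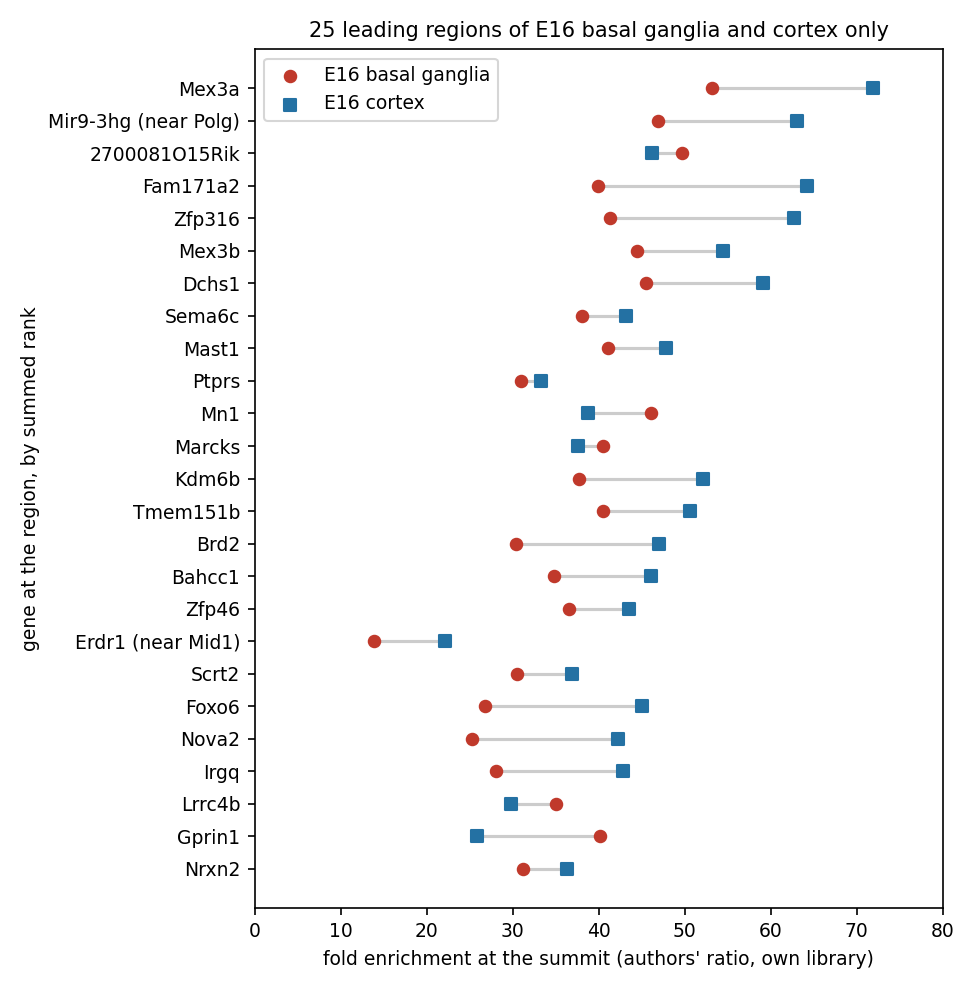
Fold enrichment at the summit, as the authors' ratio, for the 25 regions of E16 basal ganglia and cortex only with the lowest summed rank, named by gene and ordered from the top, with 1 library per tissue and no error bars. Circles are the basal ganglia, from 13.8 to 53.2, and squares the cortex, from 22.1 to 71.9; Mex3a leads and Erdr1 near Mid1 has the lowest values.

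Almost every region common to the E16 basal ganglia and cortex was absent from the other lists. Of 3375 merged regions that held both, the 3186 made up 94.4% (93.6 to 95.2), and the other 189 also held the E16 bulb in 148 cases, the P3 cortex in 107 and the P3 bulb in 66. On the chromosomes used, the other lists were shorter, with 1665 regions for the E16 bulb, 2116 for the P3 cortex and 732 for the P3 bulb. The E16 basal ganglia list had 14732 there and the E16 cortex list 6307. Merged regions of a single list were also common, with 9377 from the basal ganglia alone and 2427 from the cortex alone. Whether the 94.4% reflects list length was not tested. Within 1 kb of a region of another list lay 1.19% of the shared regions (0.845 to 1.63), and within 10 kb 7.50% (6.61 to 8.47). The peak names of these 2 lists share a mark that occurs in no region of the other 3 lists, and the labels do not say what it stands for. Tissue and age cannot be told apart from whatever this mark records.

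The 3186 regions drew on 24.9% of the basal ganglia list (24.2 to 25.6) and 57.7% of the cortex list (56.5 to 58.9). Most, 79.6%, joined 1 basal ganglia region to 1 cortex region, and the most fragmented joined 8 basal ganglia or 6 cortex regions. In 53.5% of these one-to-one pairs the shorter region lay wholly inside the longer one. Where a region joined several, the values given for a library are those of its strongest.

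The summits of the 2 tissues lay close together. The median distance was 118 bp (95% interval 112 to 124), 67.3% were within 200 bp (65.6 to 68.9) and 25.4% within 50 bp (23.9 to 26.9), while the largest distance was 5882 bp. The sonicated fragments were longer than the median distance, per the labels' protocol. Both summits had the same protein-coding gene as host or nearest neighbour in 98.7% of regions (98.3 to 99.1). Only overlapping regions were kept, so the rule itself favours short distances and the same gene.

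At the edge of the rule, 11 one-to-one pairs overlapped by 20 bp or less, and 10 pairs of basal ganglia and cortex regions lay apart by 20 bp or less and were not counted. The nearest inside was at Maged1, with an overlap of 1 bp and a fold enrichment of 4.84 in the basal ganglia and 4.78 in the cortex. The nearest outside was at Nmb, with a gap of 1 bp, 3.91 in the basal ganglia and 6.75 in the cortex. Pairs at Meis2 and Rps3, inside by 4 bp, and at Msi2, outside by 2 bp, lay beside them. Apart from the basal ganglia value at Maged1 and the cortex value at Nmb, the values at these 5 pairs were below the list medians of 4.55 in the basal ganglia and 5.02 in the cortex.

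The shared regions were wider than the single-tissue regions of their own lists and than those of the basal ganglia and E16 bulb only. The 189 regions that also held another list were not compared. Among regions in all 5 lists, those at Dlx5 and Dlx6 spanned 11952 and 13007 bp. The median was 832 bp in the basal ganglia (801 to 857), against 444 bp (440 to 448) for regions of the basal ganglia alone and 593 bp (576 to 612) for those of the basal ganglia and E16 bulb only. In the cortex it was 821 bp (800 to 843), against 430 bp (421 to 438) for regions of the cortex alone. Basal ganglia regions over 1 kb stood in 40.8% of the shared regions, against 4.22% of regions of the basal ganglia alone, and cortex regions over 1 kb in 40.1%, against 7.33% of those of the cortex alone. Of the list regions 2 kb or wider, 474 of 531 in the basal ganglia and 475 of 517 in the cortex were in shared regions. A wide region meets another more easily, so the rule itself favours width.

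Fold enrichment was higher than in single-tissue regions but not the highest in the basal ganglia. The median was 5.08 in the basal ganglia (5.08 to 5.22), against 4.30 for regions of the basal ganglia alone and 7.43 (7.03 to 8.01) for those shared with the E16 bulb only. In the cortex it was 5.86 (5.85 to 6.03), against 4.56 (4.56 to 4.68) for regions of the cortex alone. Without regions wider than 1 kb the median of shared regions fell to 4.30 in the basal ganglia and 4.82 in the cortex. The medians of the single-tissue regions were not recomputed under that setting. Shared regions held 24.9% of the whole basal ganglia list and 57.7% of the cortex list. In the basal ganglia they were 61 of the 100 strongest regions, 331 of the 1000 strongest and 207 of the 1000 weakest. In the cortex they were 86 of the 100 strongest regions, 869 of the 1000 strongest and 410 of the 1000 weakest. Without regions wider than 1 kb they were 6 of the 100 strongest in the basal ganglia and 33 of the 100 strongest in the cortex.

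**Figure D2:**
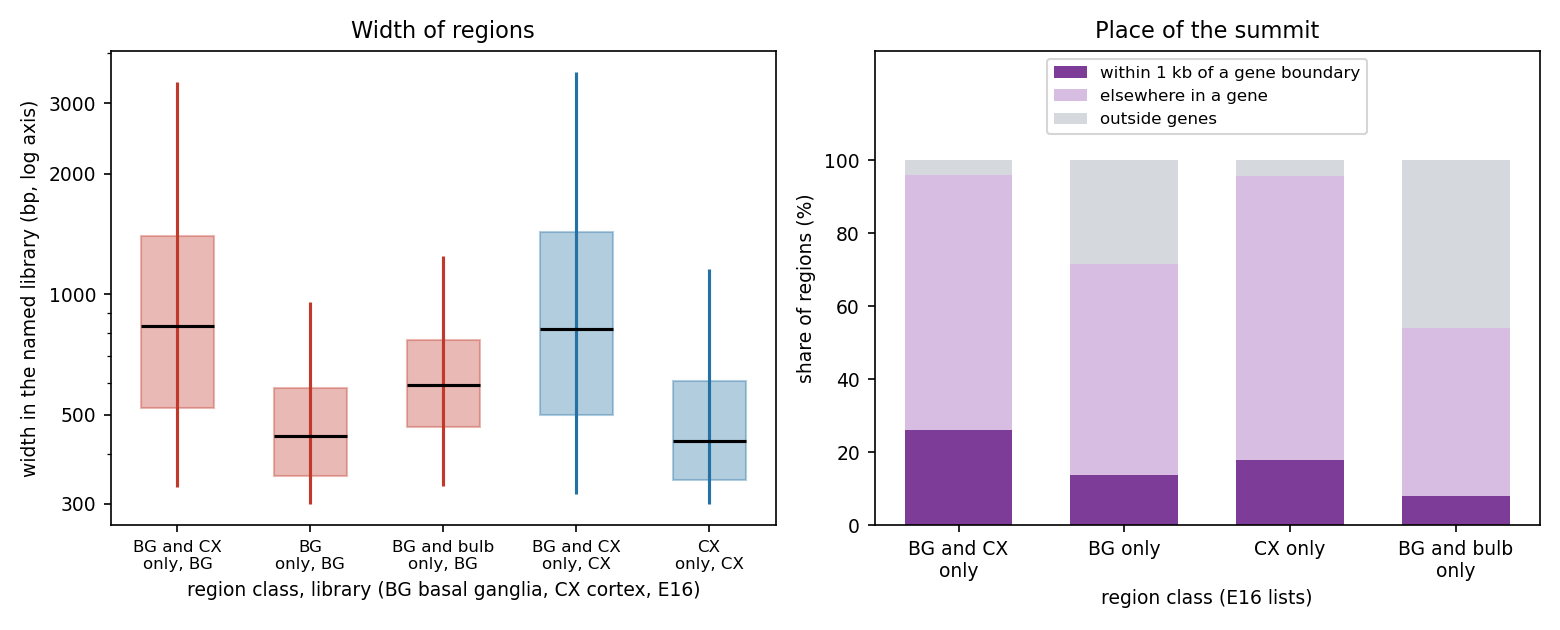
Left, width in bp on a log axis for regions of each class in the named E16 library (line, median; box, quartiles; whisker, 5% to 95% quantiles over regions), with basal ganglia medians of 832 bp for basal ganglia and cortex only, 444 bp for basal ganglia only and 593 bp for basal ganglia and bulb only, and cortex medians of 821 bp for basal ganglia and cortex only and 430 bp for cortex only. Right, the share of regions of each class by the place of the summit, outside genes in 4.11% of regions of basal ganglia and cortex only, 28.4% of basal ganglia only, 4.37% of cortex only and 46.0% of basal ganglia and bulb only.

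Wider regions were also stronger in each library. The 173 merged regions under 500 bp had a median of 3.73 in the basal ganglia and 4.41 in the cortex. The 124 regions of 5 kb or more had 13.99 in the basal ganglia and 19.3 in the cortex. Across the 3186 regions Spearman's rho between width and fold enrichment was 0.725 in the basal ganglia and 0.762 in the cortex, and between the fold enrichments of the tissues it was 0.496. These are descriptions over regions of the same 2 libraries, in which a region had to pass the authors' threshold to be listed.

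**Figure D3:**
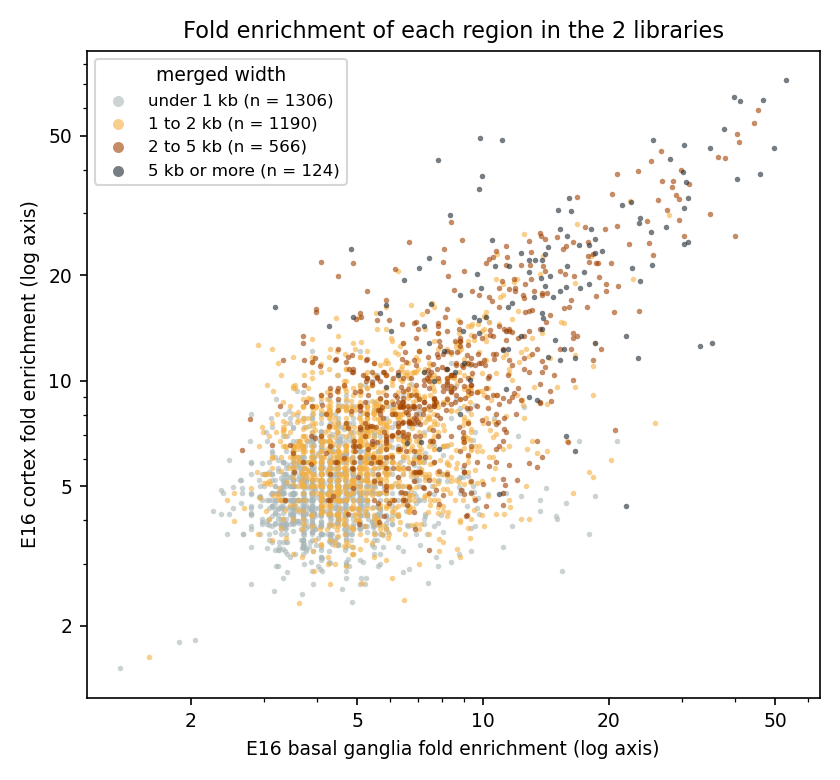
Fold enrichment of each of the 3186 regions in the E16 basal ganglia (x axis) and E16 cortex (y axis) libraries, both on log axes, 1 point per region, coloured by the width of the merged region. The 124 regions of 5 kb or more have medians of 13.99 in the basal ganglia and 19.3 in the cortex, and points far from the diagonal mark regions strong in 1 tissue.

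Some regions were strong in 1 tissue and barely listed in the other. The 5 most ahead in the basal ganglia, by rank over list length, lay within Tiam2, Agap1, Apbb2 and Cux2 and nearest to Aldh1b1. Cux2 is in the list of cortical glutamatergic lineage genes used below. At Tiam2, a Rac exchange factor gene, fold enrichment was 15.4 in the basal ganglia (rank 250 of 14795) and 2.88 in the cortex (rank 6246 of 6333). The 5 most ahead in the cortex lay within Bhlhe22, Nfix, Tcf4 and Cd37 and near Psme3ip1. At Bhlhe22, a basic helix-loop-helix gene of cortical projection neurons, it was 2.90 in the basal ganglia (rank 13702) and 12.7 in the cortex (rank 393). At Tcf4, the E-protein partner of such factors, a region of 7413 bp had 3.18 in the basal ganglia and 16.2 in the cortex.

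The shared regions lay at genes. By the basal ganglia summit, 26.1% lay no more than 1 kb off a gene boundary (24.6 to 27.7), 69.8% elsewhere in a gene (68.1 to 71.4) and 4.11% outside genes (3.45 to 4.86). Outside genes lay 28.4% of regions of the basal ganglia alone (27.5 to 29.4), 4.37% of those of the cortex alone (3.59 to 5.26) and 46.0% of those of the basal ganglia and E16 bulb only (42.02 to 50.05). In this the shared regions stood near the cortex-only class, while their share at gene boundaries was above the 17.9% of that class (16.4 to 19.5). Across widths the boundary share lay between 24.6% for merged regions of 500 bp to under 1 kb and 33.9% for those of 5 kb or more. Intervals here cover counting error only, and the gene table gives neither exons nor introns.

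The host genes were shorter than those of the other classes compared. The median length of protein-coding genes holding a summit of a shared region was 25.6 kb, against 82.3 kb for regions of the basal ganglia alone, 34.5 kb for the cortex alone and 204 kb for the basal ganglia and E16 bulb only. All protein-coding genes had a median of 17.3 kb. Of the 3186 summits, 2765 fell in 1661 such genes, of which 488 held 2 or more and 16 held 10 or more, and 43.4% of the regions lay within 5 kb of another. Tcf4 held most, 21, and with them 65 regions of the cortex alone and 5 of the basal ganglia alone. Gse1 followed with 18, Zmynd8 with 14, and Meis2 and Tnrc18 were among those with 12 each. Meis2 encodes a TALE homeodomain cofactor, and at this gene there were also 25 regions of the basal ganglia alone.

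A gene was counted as holding a shared region when a basal ganglia summit lay in its body extended by 10 kb. This held for 2823 of 21631 protein-coding genes, or 13.1%, and for 12.8% of genes under 10 kb and 15.9% of genes of 200 kb or more. The strongest region at these genes had a median fold enrichment of 5.86 in the basal ganglia and 6.73 in the cortex. In the lists below, counts are read against the 13.1%, each gene's value is that of its region strongest in the basal ganglia, and no list was tested. At a gene with several regions this choice favours the basal ganglia over the cortex. Meis2, for instance, is given 12.8 in the cortex, while its highest cortex value was 20.4.

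In the Dlx family, 3 of 6 genes held a shared region (50%, 11.8 to 88.2), an interval that holds the 13.1% of all genes. The region over Dlx2 (chr2:71540119-71546773, 6655 bp) had 35.3 in the basal ganglia (rank 20) and 12.8 in the cortex (rank 337). The region 8.92 kb from Dlx6 had 12.04 in the basal ganglia and 5.21 in the cortex, and the one 3.85 kb from Dlx1 had 4.004 in the basal ganglia and 4.78 in the cortex. The region of 13007 bp at Dlx5 and Dlx6, with 35.6 in the basal ganglia and 10.6 in the cortex, was in all 5 lists. So was a region of 11952 bp that began at chr6:6856271, beside the shared region near Dlx6, which ended at chr6:6856219. At Dlx1 or Dlx2, regions with 27.6, 22.8 and 16.9 in the basal ganglia were also in the E16 cortex, E16 bulb and P3 cortex lists.

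Among 7 genes of GABA synthesis and transport, 3 held a shared region (42.9%, 9.90 to 81.6), again an interval that holds the 13.1%. Slc32a1, the vesicular GABA transporter, had 33.02 in the basal ganglia (rank 38) and 12.6 in the cortex (rank 421). Gad2, a GABA-synthesising enzyme, had 16.6 in the basal ganglia (rank 244) and 6.29 in the cortex (rank 1980), in a region of 10312 bp. Both stood further ahead in the basal ganglia list. The strongest region of Gad1, with 17.7 in the basal ganglia and 8.22 in the cortex, was also in both bulb lists, and around it lay 12 regions of the basal ganglia alone. Regions of the basal ganglia alone were at 5 of these 7 genes, where 18.6% of all protein-coding genes had one.

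Transcription factors of the GABAergic lineage held shared regions in 12 of 28 cases (42.9%, 24.5 to 62.8). Nr2f1, an orphan nuclear receptor of regional patterning, had 25.6 in the basal ganglia (rank 76) and 48.7 in the cortex (rank 23). Meis2 had 18.6 in the basal ganglia and 12.8 in the cortex, and the forkhead gene Foxp1 had 15.96 in the basal ganglia and 6.70 in the cortex. Regions of the basal ganglia alone were at 27 of the 28, against 18.6% of all protein-coding genes.

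Genes of the cortical glutamatergic lineage held shared regions in 15 of 22 cases (68.2%, 45.1 to 86.1). Bcl11b, a zinc finger factor of subcortical projection neurons that striatal neurons also make, had 25.4 in the basal ganglia and 21.4 in the cortex. Lhx2, a selector gene of the cortex, had 16.02 in the basal ganglia and 33.1 in the cortex, and Bcl11a had 15.9 in the basal ganglia and 21.2 in the cortex. The projection neuron genes Neurod2 and Tbr1, named here after their values were seen, were far ahead in the cortex, but the list was mixed. Its genes with a shared region had medians of 8.99 in the basal ganglia and 8.58 in the cortex, by the region strongest in the basal ganglia. That choice favours the basal ganglia at genes with several regions, such as Cux2 with 5. Cux2 and Fezf2, also named after their values were seen, stood further ahead in the basal ganglia. Cux2 had 13.7 in the basal ganglia (rank 589) and 4.27 in the cortex (rank 3800). Fezf2 had 7.92 in the basal ganglia (rank 1506) and 4.13 in the cortex (rank 5430). Neurod2 had 9.84 in the basal ganglia (rank 936) and 49.1 in the cortex (rank 22), and Tbr1 had 11.1 in the basal ganglia (rank 462) and 48.5 in the cortex (rank 12). Regions of the cortex alone were at 16 of these 22 genes, where 8.95% of all protein-coding genes had one, while regions of the basal ganglia and E16 bulb only were at 2, against 1.22% of all.

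Factors of the POU and Sox families held shared regions at 9 of 12 genes. Sox2, which maintains neural progenitors, had 22.02 in the basal ganglia and 13.5 in the cortex over 12817 bp. Sox4, which acts in young neurons, had 17.98 in the basal ganglia and 18.9 in the cortex, and its relative Sox11 had 12.3 in the basal ganglia and 23.2 in the cortex. Pou3f2 had 17.1 in the basal ganglia and 18.4 in the cortex. The Notch and neurogenesis list held 12 of 23, led by Notch1 with 11.1 in the basal ganglia and 4.78 in the cortex, the glycosyltransferase gene Lfng with 8.15 in the basal ganglia and 8.27 in the cortex, Insm1 with 7.78 in the basal ganglia and 8.59 in the cortex and Id4 with 7.03 in the basal ganglia and 5.996 in the cortex.

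Lists of general regulators and of ubiquitous genes also stood above the 13.1% of all genes. Of 32 chromatin regulators, 24 held one (75%, 56.6 to 88.5), among them Kdm6b, the methyltransferase gene Setd1b with 15.3 in the basal ganglia and 27.1 in the cortex, and the remodelling complex gene Smarcc1 with 11.2 in the basal ganglia and 7.31 in the cortex. Of 28 RNA-binding protein genes, 16 held one, led by Mex3a, Mex3b, Nova2 and Ptbp1, the last with 15.2 in the basal ganglia and 17.98 in the cortex. Of 20 ubiquitous genes, 11 did (55%, 31.5 to 76.9). The summits stood 0.643 kb outside Gapdh, 0.293 kb outside Rps18 and 0.058 kb outside Eef2, and inside Eef1a1. Gapdh had 18.2 in the basal ganglia and 27.1 in the cortex, Rps18 had 17.5 in the basal ganglia and 27.5 in the cortex, Eef2 had 15.1 in the basal ganglia and 30.7 in the cortex, and Eef1a1 had 14.1 in the basal ganglia and 18.6 in the cortex. The ubiquitous genes' median of 12.3 in the basal ganglia and 15.1 in the cortex was above the 5.86 in the basal ganglia and 6.73 in the cortex of all genes holding a shared region. Whether such loci are prone to artifacts was not tested.

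Several lists of neuronal structure and signalling were above the 13.1% as well. The neuronal cytoskeleton and migration list held 20 of 27, with Mast1, Marcks, Cdk5r1, the activator of the kinase Cdk5 (15.6 in the basal ganglia and 12.3 in the cortex) and Stmn1, a microtubule-destabilising protein gene (14.9 in the basal ganglia and 13.1 in the cortex). The synapse list held 14 of 30, with Nrxn2 at 31.2 in the basal ganglia and 36.3 in the cortex, followed by Nlgn2, Shank1 and Dlgap3. The axon guidance list held 11 of 30, with Sema6c, Epha4 (19.7 in the basal ganglia and 18.8 in the cortex), Efnb1 and Sema6b. The Wnt list held 10 of 24, led by Apc2 with 11.7 in the basal ganglia and 9.01 in the cortex, then Axin2, Fzd8 and Dvl3. The ion channel list held 6 of 21 (28.6%, 11.3 to 52.2), an interval that holds the 13.1%, among them Cacna1b, Hcn2 and Scn8a.

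For genes that mark mature or subtype identity, the counts could not be told from the 13.1% of all genes. None of 14 striatal projection neuron genes held one (0%, up to 23.2%). Regions of the basal ganglia alone were at 4 of these 14, where 18.6% of all protein-coding genes had one. They were also at 7 of 17 cortical interneuron subtype genes and 8 of 14 olfactory bulb interneuron genes. Of the 17 cortical interneuron subtype genes 1 held a shared region (5.88%, 0.149 to 28.7). Of 14 olfactory bulb interneuron genes only Sall1 did (7.14%, 0.181 to 33.9), with 7.86 in the basal ganglia and 13.001 in the cortex. None of 6 chemokine genes did (0%, up to 45.9%), and at Cxcl14 no list had a region within 10 kb. Markers of other cell types stood between 0 and 2 of 10, with 0 of 10 microglia, 0 of 10 endothelial and mural, 1 of 10 oligodendrocyte (Sox10), 1 of 10 astrocyte (Sox9), 1 of 10 erythroid and liver (Klf1, whose region 7.65 kb away is that of Mast1) and 2 of 10 muscle markers (Ckm and Mef2c).

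**Figure D4:**
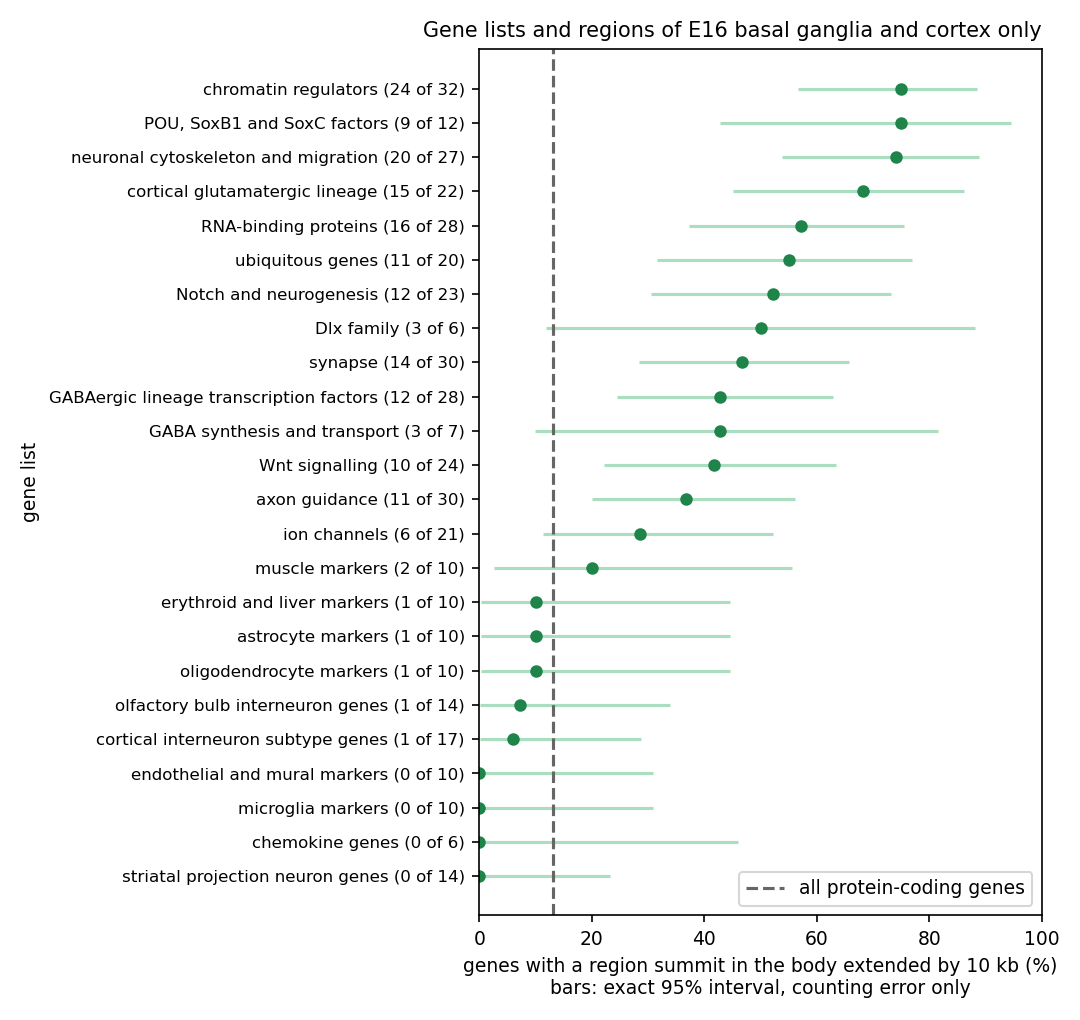
Share of the genes of each of 24 lists that hold a summit of a region of E16 basal ganglia and cortex only in the body extended by 10 kb, with exact 95% intervals for counting error; counts stand beside the names and the dashed line marks the 13.1% of all protein-coding genes. Chromatin regulators, with 24 of 32, and the POU and Sox factors, with 9 of 12, share the top at 75%, ubiquitous genes stand at 11 of 20 and striatal projection neuron genes at 0 of 14.

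Fewer listed genes held a shared region when wide regions were left out. Without regions over 1 kb, 7.77% of protein-coding genes held a shared region, and the counts fell to 0 of 6 for the Dlx family, 0 of 7 for GABA genes, 1 of 12 for the POU and Sox factors and 7 of 22 for the glutamatergic lineage. Chromatin regulators then stood at 19 of 32 genes and ubiquitous genes at 6 of 20. With the basal ganglia list shortened to the length of the cortex list, the Wnt list fell to 3 of 24, where 8.77% of all genes held one.

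MicroRNA hairpins were covered by 46 of the shared regions. They held 57 of 1005 annotated hairpins (5.67%), or 1.09 per 100 kb covered, against 0.375 for regions of the basal ganglia alone, 0.759 for the cortex alone and 0 of 1005 hairpins (up to 0.366%) for the basal ganglia and E16 bulb only. Of the 57, 49 lay in both a basal ganglia and a cortex region, and for 29 both summits were within 500 bp. Without regions over 1 kb only 4 hairpins were covered. The hairpins described below were picked from the 57 for their known neural roles and do not represent them all. Mir1905, in the Mex3a region, had the highest values, with 53.2 in the basal ganglia and 71.9 in the cortex. Mir6991 had 49.6 in the basal ganglia and 46.2 in the cortex. Mir7653, Mir141, Mir200c, Mir23a, Mir27a and Mir24-2 were also covered.

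The miR-9 family, which acts in neural progenitors, was at 2 regions, which ranked 3 and 42 in both lists. Mir9-3 lay in the broad Mir9-3hg region, 10283 bp from the basal ganglia summit and 10293 bp from the cortex summit, far from both. Mir9-1 lay 401 bp from the basal ganglia summit and 380 bp from the cortex summit of a region of 24370 bp at the long non-coding gene Gm3764, with 31.0 in the basal ganglia and 24.8 in the cortex. Both hairpins give the same mature miR-9-5p and miR-9-3p shown above. Mir92b and Mir25, at separate regions on chromosomes 3 and 5, share the seed AUUGCAC in their 3p products.

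Other hairpins known from neurons lay at varied distances from the summits. Mir128-2, in Arpp21, was 133 bp from the basal ganglia summit and at 0 bp from the cortex summit, with 16.4 in the basal ganglia and 24.8 in the cortex. Mir137 was 68 bp from the basal ganglia summit and 114 bp from the cortex summit, with 10.8 in the basal ganglia and 7.61 in the cortex. Mir181a-1 and Mir181b-1 shared 1 region with 9.18 in the basal ganglia and 9.60 in the cortex. Mirlet7c-2 and Mirlet7b, which share a seed, lay 3828 and 4544 bp from the basal ganglia summit and 3835 and 4551 bp from the cortex summit, with 6.45 in the basal ganglia and 19.4 in the cortex. Mir7-1, in Hnrnpk, had 5.08 in the basal ganglia and 6.58 in the cortex, and Mir125b-1, at Mir100hg and 445 bp from the cortex summit, outside the cortex region, had 4.40 in the basal ganglia and 4.80 in the cortex.

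Promoter windows were overlapped by 317 of the shared regions (9.95%, 8.93 to 11.04), against 5.24% of regions of the basal ganglia alone (4.79 to 5.71), 1.85% of the cortex alone and 2.93% of the basal ganglia and E16 bulb only. The shared regions are wider, and a wide region meets a window more easily. Shared regions covered 381 of 32619 windows (1.17%), and a basal ganglia summit lay inside 81 of them. These 381 windows were met over 5225.84 kb, against 585 windows over 4799.58 kb for the basal ganglia alone. For the cortex alone it was 46 windows over 1317.65 kb, and for the basal ganglia and E16 bulb only 19 over 422.907 kb. At the windows printed above, fold enrichment was 5.86 in the basal ganglia and 16.9 in the cortex at Nfix. At Myt1l it was 3.25 in the basal ganglia and 4.96 in the cortex, and at the RNA helicase gene Ddx17 3.45 in the basal ganglia and 7.81 in the cortex. Nfix is a nuclear factor I gene and Myt1l a neuronal zinc finger gene.

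The core homeodomain motif was less frequent in these windows than in all promoter windows. TAATT, searched on both strands, was in 19.2% of windows overlapped by a shared region (15.3 to 23.5), against 38.1% of windows overlapped by a region of the basal ganglia alone (34.2 to 42.2) and 26.96% of all windows. In the 46 windows overlapped by a region of the cortex alone it was 15.2% (6.34 to 28.9), an interval that holds the share of the shared regions. The longer TAATTA, part of which is TAATT, was in 2.89% of windows with a shared region, against 9.91% with a region of the basal ganglia alone, 0% of the cortex alone (up to 7.71%) and 5.25% of all windows. In the 81 windows that held a basal ganglia summit, TAATT was in 20.99% (12.7 to 31.5) and TAATTA in 6.17% (2.03 to 13.8). These intervals hold the shares of all windows, so a lower share was not shown where the summit lay in the window. GGGCGG, the GC box bound by Sp factors, was in 51.2% with a shared region, against 46.3% with a region of the basal ganglia alone, 50% of the cortex alone (34.9 to 65.1) and 35.9% of all windows. The windows of the shared regions were also richer in GC, with a median of 59.7%, against 55% for the basal ganglia alone, 58.8% for the cortex alone and 53.0% for all windows.

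Split by GC content, a comparison added after the data were seen, the share with TAATT above 50% GC was close to that of all windows of like composition. From 50 to 60% GC it was in 20.4% of windows with a shared region (14.1 to 28.0), against 35.9% with a region of the basal ganglia alone (29.9 to 42.1) and 19.5% of all windows. At 60% GC or more it was in 5.85% with a shared region (2.96 to 10.2), against 16.8% with a region of the basal ganglia alone (11.6 to 23.1) and 6.40% of all windows. Under 50% GC it was in 64.7% with a shared region (50.1 to 77.6), against 66.5% with a region of the basal ganglia alone and 48.7% of all windows. A match describes these 300 bp windows only, and most shared regions lie outside them.

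**Figure D5:**
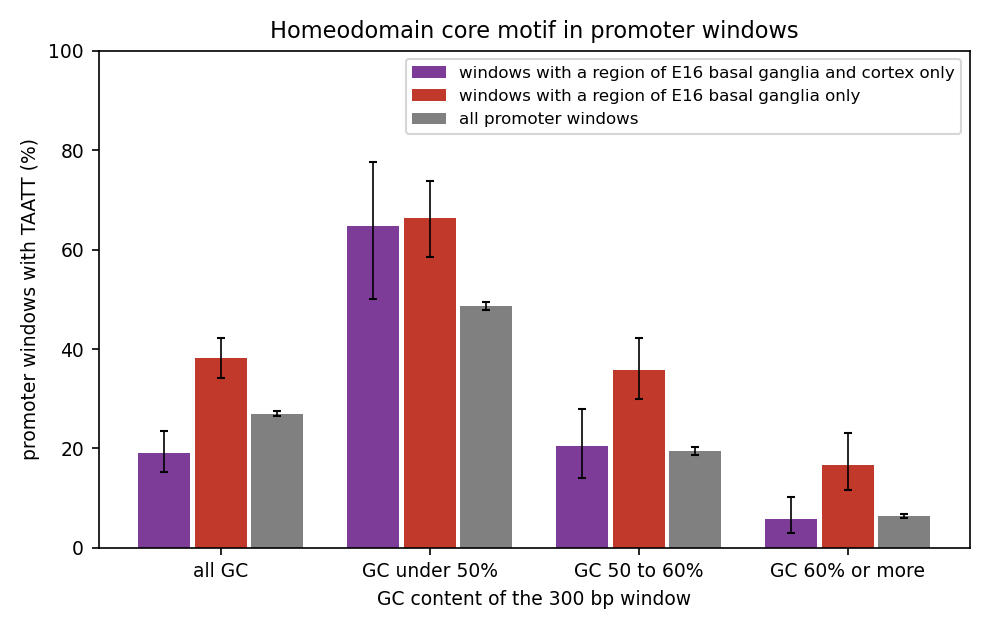
Share of 300 bp promoter windows holding TAATT on either strand, over all windows and within 3 bands of GC content, for windows overlapped by a region of E16 basal ganglia and cortex only, by one of E16 basal ganglia only, and for all windows; bars start at 0 and error bars are exact 95% intervals for counting error. Over all GC contents the share is 19.2% for basal ganglia and cortex only, 38.1% for basal ganglia only and 26.96% for all windows.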

How the data were processed

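The files used are 5 narrowPeak lists, 1 per Dlx2 immunoprecipitation. The submitters' processing notes name Trimmomatic, Bowtie2, SAMtools and MACS2, with no version, and build mm10. Neither the calling threshold nor its control library nor the read depth was given in the sources used here. Fold enrichment is a ratio that the authors deposited for each summit. Significance is the −log10 of the p-value and q-value that the authors deposited. The deposited score column was not used. These values describe and rank regions within a list only.

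Lists were merged as described above with Python 3.11.15, pandas 2.3.3 and NumPy 2.4.6, and exact Clopper-Pearson 95% intervals, which cover counting error only, came from SciPy 1.17.1. The steps were tested on simulated data. Genes, promoters and microRNAs came from RefSeq tables of GRCm38.p6, the same build as mm10. Coordinates count from 1. All 414 genes of the 24 lists were found in the table, and some genes are in more than 1 list. Strand was known for 76.3% of the regions in genes, under the 80% needed, so the position along genes is void and not reported. The members, the gene lists and the tables were chosen with earlier results of these data known. The genes named are those at the 25 regions of lowest summed rank, at the 5 regions most ahead in each tissue, the 5 with most regions (6 with ties), up to 4 per list by basal ganglia fold enrichment, and Dlx1, Dlx2, Dlx5, Dlx6, Gad1, Gad2 and Cxcl14; others are said to be chosen after their values were seen. With 1 library per tissue and age no test was run. Gene boundaries are either end of a gene, since the table gives no strand for many genes. Some genes that this rule names are not reported here.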

Additional observations from a re-analysis of the deposited data

How the results depend on the processing

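Of 110 recomputed values, 75 stayed within the interval of the reported value, or within 1.5 times for counts, 35 moved outside it and 0 changed direction. Without regions wider than 1000 bp, 1530 merged regions were left, with 71.96% of summits within 200 bp. Median fold enrichment was then 4.30 in the basal ganglia and 4.82 in the cortex, and median width 554 bp for basal ganglia regions and 532 bp for cortex regions, with 0% over 1 kb by construction. They were 6 of the 100 strongest in the basal ganglia and 33 in the cortex, with no share over the lists left computed. Of them 5.03% lay outside genes, and they touched 1680 genes, 112 promoter windows and 4 hairpins. With the basal ganglia list shortened to the length of the cortex list, 1762 were left, with 69.2% of summits within 200 bp, a median fold enrichment of 6.90 in the basal ganglia and 7.16 in the cortex, widths of 1257.5 bp for basal ganglia regions and 1118.5 bp for cortex regions, and 65.5% over 1 kb in the basal ganglia and 54.9% in the cortex. With −log10 q of at least 5 in every list, median fold enrichment was 5.67 in the basal ganglia and 6.51 in the cortex, widths were 995 bp for basal ganglia regions and 965.5 bp for cortex regions, and 49.7% in the basal ganglia and 47.8% in the cortex were over 1 kb. An overlap of at least 50% of the shorter region gave 69.4% of summits within 200 bp, and a cortex median of 6.06 for fold enrichment and 845.5 bp for width. Merging regions up to 200 bp apart gave 64.5% of summits within 200 bp. Gene bodies extended by 0 kb gave 1728 genes and by 50 kb 4974, and 81 promoter windows held the basal ganglia summit. Leaving out regions within 1 kb of another list, or using the cortex summit, moved none of the values recomputed. The hairpin counts, the GC bands, the gene length bands and the recounted gene lists were added after the data were seen. The causes of these shifts were not tested beyond what each setting removes. No paired analysis was possible because each tissue and age has 1 library and no test was run. Read depth is unknown, so weak regions may be missing from the shorter lists.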
